A study of Saccharomyces cerevisiae with 8 samples.

Results

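The genes described here are 35 Saccharomyces cerevisiae ORFs of the endoplasmic reticulum (ER) that act in translocation, N-glycosylation and ER-associated degradation. The rule that chose them lists them by name for their place in these pathways and uses no measured value, although it was drawn up with earlier results of these data known. They comprise 14 genes of ER-associated degradation, 8 of the translocation channels, 4 of the signal peptidase and 9 of the oligosaccharyltransferase. The array table held an entry for 34 of them among 6152 ORFs (*OST5* had none), and 28 of the 34 had a value in every condition.

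RNA came from a pair of wild strains, each a single isolate: the more ethanol-tolerant CECT10094 (given as PE35M in the sample labels), a flor yeast from Spanish wine, and the less tolerant Temohaya-MI26, from agave fermentation in Mexico. Each was grown in GPY medium with 10% ethanol or without ethanol (0%), and sampled early, at 1 h, or late. The sample labels place the late samples in exponential phase, whereas the study's methods place them after it. Late cultures were 28 h old in CECT10094 and 40 h old in Temohaya-MI26 with ethanol, against 10 h in both strains without it, so late ethanol differences cannot be told apart from differences in culture hours. RNA of each of the 8 conditions was labelled with Cy5 and hybridised against a Cy3-labelled pool of RNA of all samples on spotted arrays. The deposited value is 1 log2 ratio to that pool per ORF and condition, the median of 3 slides.

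Proteins that enter the secretory pathway pass the ER membrane through the Sec61 channel, lose their signal sequence to the signal peptidase, and receive a preassembled glycan from the oligosaccharyltransferase as they emerge in the lumen. Chains that fail to fold are recognised, in part by their trimmed glycans, ubiquitinated by ligases of the ER membrane, pulled into the cytosol by the ATPase Cdc48 and degraded by the proteasome, a route called ER-associated degradation (ERAD). In yeast many genes of these steps are known targets of the unfolded protein response, the pathway that answers misfolded protein in the ER.

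Levels are given below as log2 ratios to the pool with the median of each condition set to 0. The medians as deposited lay between -0.22 and 0.32. ORFs of chromosomes I, III and the right arm of II had a median above 0 in every condition, highest in late samples without ethanol: late it was 0.13 with ethanol and 0.46 without in CECT10094, and 0.20 and 0.69 in Temohaya-MI26, and at 1 h it was 0.17 with ethanol and 0.19 without for CECT10094 but 0.05 with and 0.11 without for Temohaya-MI26. This touches *DER1*, *NPL4* and *SEC66*, which lie on the right arm of II. An ethanol difference is the level at 10% minus the level at 0% in 1 strain and stage. With 1 value per condition it had no replicate check. It was called when it lay outside limits that hold the central 95% of a normal distribution with the mean and SD of all ORFs in the same comparison, which describes size only. The change common to both strains was tested with limma, in which the strains serve as the replicates. Its p-values measure how well the strains agree and not the spread between cultures or slides. Both stages share 1 estimate of the spread per ORF, drawn toward a value common to all ORFs. A p-value at 1 h therefore also reflects how far the strains differed late, and the reverse. The values are relative amounts in total RNA, so a change in some cells and a smaller change in every cell cannot be told apart.

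**Figure D1:**
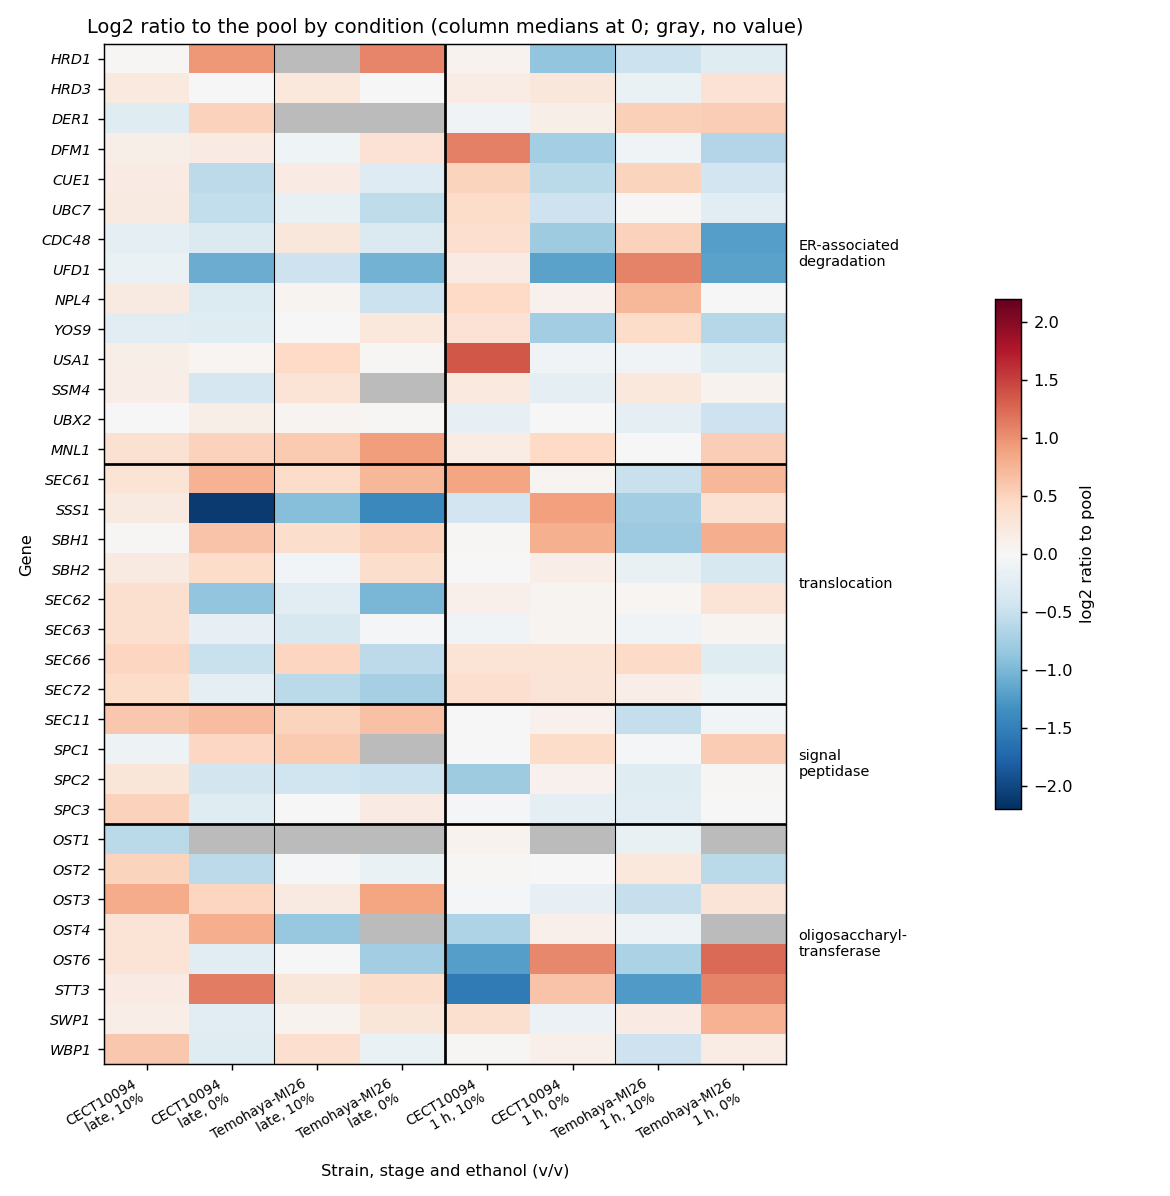
Levels of the 34 genes with an entry (rows, by sub-group) in the 8 conditions (columns: late, then 1 h; within each, CECT10094 and then Temohaya-MI26; 10% before 0% ethanol), as log2 ratio to the pool with each condition's median at 0. Empty cells had no value. At 1 h *UFD1*, *CDC48*, *YOS9*, *CUE1* and *UBC7* were positive with ethanol and negative without in both strains. *STT3*, *OST6*, *SSS1*, *SEC63*, *SPC1* and *SPC2* were the reverse, some of them with values close to the median. How many of all ORFs had either pattern was not counted.

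After 1 h with ethanol, the ERAD genes *UFD1* and *CDC48* were higher and the oligosaccharyltransferase genes *STT3* and *OST6* were lower in both strains. By limma, 5 of 32 genes tested rose (*UFD1*, *CDC48*, *DFM1*, *YOS9* and *CUE1*, all among the 14 of ERAD) and 3 fell (*STT3* and *OST6* of the oligosaccharyltransferase and *SBH1* of the channel) at an adjusted p under 0.05. Of all 5905 ORFs tested, 10.1% rose and 10.7% fell, and the counts over the whole set are to be read against these shares. By sub-group, 5 of the 14 ERAD genes were called higher and 0 lower, and 0 of the other 18 higher and 3 lower. Against shares of 10.1% and 10.7%, a count of 0 among so few genes carries little weight. With quantile normalisation *UFD1* and *CDC48* alone stayed higher, while *YOS9*, *CUE1* and *DFM1* did not pass (limma adjusted p = 0.0548, 0.0556 and 0.0577). With the 1 h pair of CECT10094 left out, only *UFD1* rose and only *STT3* fell. With that of Temohaya-MI26 left out, none rose and only *OST6* fell.

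*UFD1* (YGR048W) encodes a subunit of the Cdc48 cofactor that binds ubiquitinated substrates. At 1 h it lay at 0.18 with ethanol against -1.17 without in CECT10094, and at 1.09 against -1.17 in Temohaya-MI26. The difference of 2.26 in Temohaya-MI26 ranked 144 from the top of 5872 ORFs and was past the upper limit of 2.16 in that strain, beyond which 2.74% of ORFs lay. In CECT10094 it was 1.35, inside the limit of 1.92, which 2.18% of ORFs and 0 of the 33 measured genes of the set exceeded. The common change was 1.80 ± 0.33 (SE, limma adjusted p = 0.00545).

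*CDC48* (YDL126C), the ATPase that draws ubiquitinated proteins out of the membrane, had the same pattern. It lay at 0.37 with ethanol against -0.78 without in CECT10094, and at 0.51 against -1.22 in Temohaya-MI26, a common change of 1.44 ± 0.31 (SE, limma adjusted p = 0.0115). *NPL4* (YBR170C), the partner of Ufd1 in the same cofactor, differed less: 0.44 with ethanol against 0.09 without in CECT10094, and 0.72 against -0.01 in Temohaya-MI26. Its common change, 0.55 ± 0.30, did not pass the test (limma, adjusted p = 0.232). The 3 genes of the Cdc48 complex thus had positive differences in both strains at 1 h, with *UFD1* and *CDC48* past the threshold.

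*YOS9* (YDR057W), the lectin that reads trimmed glycans on misfolded proteins, lay at 0.31 with ethanol against -0.77 without in CECT10094 and at 0.40 against -0.62 in Temohaya-MI26 (common change 1.05 ± 0.29, SE, limma adjusted p = 0.0324). *CUE1* (YMR264W), which anchors and activates the ubiquitin-conjugating enzyme Ubc7 at the membrane, lay at 0.48 against -0.59 and at 0.49 against -0.42 in the same order (common change 0.99 ± 0.29, SE, limma adjusted p = 0.0406). The strains were close together for both genes in both media. *UBC7* (YMR022W) itself differed by 0.86 in CECT10094 and 0.28 in Temohaya-MI26 and did not pass the test (limma, adjusted p = 0.233).

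*DFM1* (YDR411C), a Der1-related rhomboid pseudoprotease that acts in the retrotranslocation of membrane proteins, passed the test with unequal strains. It lay at 1.11 with ethanol against -0.75 without in CECT10094, a difference of 1.86 just inside the limit of 1.92, and at -0.07 against -0.65 in Temohaya-MI26, a difference of 0.58. The common change was 1.22 ± 0.36 (SE, limma adjusted p = 0.0406). *USA1* (YML029W), the scaffold that joins Der1 to the Hrd1 ligase, was similarly uneven, differing by 1.45 in CECT10094 but by only 0.19 in Temohaya-MI26, and did not pass (limma, adjusted p = 0.141).

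The ligases and the remaining ERAD genes did not pass the test at 1 h. *HRD1* (YOL013C), the ligase of the lumenal and membrane branches, lay at 0.07 with ethanol against -0.86 without in CECT10094 but at -0.48 against -0.27 in Temohaya-MI26, so the strains took opposite signs. *SSM4* (YIL030C), which encodes the Doa10 ligase, differed by 0.42 and 0.16. The genes for the Hrd1 partner Hrd3, the Der1 channel protein, the Cdc48 recruiter Ubx2 and the glycan-trimming mannosidase Mnl1 (also called Htm1) differed by between -0.56 and 0.24 in either strain. *MNL1* (YHR204W) was the lowest of the ERAD genes in both strains, at 0.16 with ethanol against 0.44 without in CECT10094 and at -0.01 against 0.55 in Temohaya-MI26. Over the 14 ERAD genes CECT10094 had a median difference at 1 h of 0.90, against 0.05 for all ORFs, and Temohaya-MI26 one of 0.26, against 0.01. In each strain 10 of 14 lay above 0, as did 52.8% of all ORFs in CECT10094 and 50.6% in Temohaya-MI26. On the deposited scale the medians were 1.27 in CECT10094 and 0.17 in Temohaya-MI26, with 0 and 4 genes below 0.

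**Figure D2:**
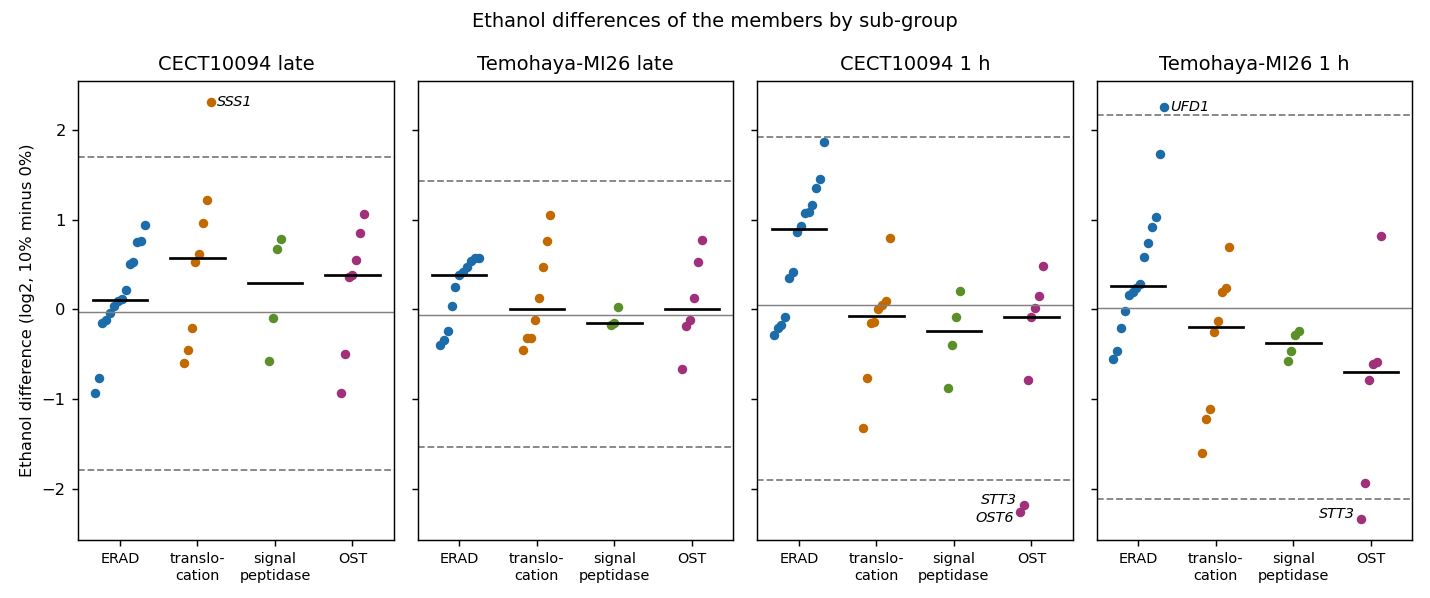
Ethanol differences (log2, 10% minus 0%) of the measured genes by sub-group, with ERAD for ER-associated degradation and OST for the oligosaccharyltransferase, in the late and 1 h samples of each strain. Each point is a gene, black bars are sub-group medians, the gray line is the median of all ORFs and dashed lines are the limits. Of all points, 5 lay outside the limits: *SSS1* in late CECT10094, *STT3* in both strains at 1 h, *OST6* in CECT10094 at 1 h and *UFD1* in Temohaya-MI26 at 1 h.

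The oligosaccharyltransferase showed the lowest values of the whole set at 1 h, in *STT3* (YGL022W) and *OST6* (YML019W). *STT3*, the catalytic subunit that transfers the glycan to asparagine, lay at -1.56 with ethanol against 0.62 without in CECT10094 and at -1.24 against 1.09 in Temohaya-MI26. *OST6*, one of the alternative thioredoxin-like subunits, lay at -1.21 against 1.05 in CECT10094 and at -0.70 against 1.24 in Temohaya-MI26. Both genes were thus below the array median in both strains with ethanol and above it in both without. The share of all ORFs with such a split was not counted.

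Set against single-strain limits, *STT3* (difference -2.18) and *OST6* (-2.27) were past the lower limit of -1.90 in CECT10094, as were 3.53% of ORFs, and *STT3* (-2.34) was past that of -2.12 in Temohaya-MI26, as were 3.08%. *OST6* in Temohaya-MI26, at -1.94, lay just inside. They ranked 152 and 139 from the bottom of 6014 ORFs in CECT10094, and *STT3* ranked 134 from the bottom of 5872 in Temohaya-MI26. The common change was -2.26 ± 0.32 for *STT3* and -2.10 ± 0.30 for *OST6* (SE, limma adjusted p = 0.00168 for each).

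No other subunit of the complex passed the test. *OST3* (YOR085W), which takes the place of *OST6* in the other form of the enzyme, lay at -0.04 with ethanol against -0.18 without in CECT10094 and at -0.51 against 0.29 in Temohaya-MI26 (common change -0.33 ± 0.37, SE, limma adjusted p = 0.579). *SWP1* (YMR149W), a subunit needed for viability, lay at 0.35 against -0.13 in CECT10094 but at 0.18 against 0.76 in Temohaya-MI26. *OST2* (YOR103C), the yeast counterpart of mammalian DAD1, lay at 0.03 against 0.02 in CECT10094 and at 0.23 against -0.59 in Temohaya-MI26. Neither gene passed the test, and the strains did not share the sign of *SWP1* or the size of *OST2*.

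*WBP1* (YEL002C), another essential subunit, differed by -0.09 in CECT10094 and -0.61 in Temohaya-MI26. *OST4* (YDL232W), a very small membrane subunit, differed by -0.79 in CECT10094 and had no value without ethanol in Temohaya-MI26. *OST1* (YJL002C), the ribophorin I counterpart, had no value in any sample without ethanol, so no difference could be formed. Its levels with ethanol at 1 h were 0.09 in CECT10094 and -0.16 in Temohaya-MI26. The sub-group median was -0.09 over 7 genes in CECT10094 (0.29 on the deposited scale) and -0.70 over 6 in Temohaya-MI26.

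Among the translocation genes, both small partners of the Sec61 channel had negative differences in both strains at 1 h, and 1 of them, *SBH1*, passed the test. *SBH1* (YER087C-B), the beta subunit of the channel, lay at 0.02 with ethanol against 0.78 without in CECT10094 and at -0.80 against 0.80 in Temohaya-MI26, and fell by the test (common change -1.18 ± 0.33, SE, limma adjusted p = 0.0329). That call was lost on the deposited scale, without centring of the conditions (-1.04, limma, adjusted p = 0.107). *SBH2* (YER019C-A), its paralog in the parallel Ssh1 channel, lay at -0.01 against 0.15 and at -0.16 against -0.35, a common change of 0.02 ± 0.30. How far the spotted products separate such related genes was not tested.

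*SSS1* (YDR086C), the gamma subunit shared by both channels, lay at -0.42 with ethanol against 0.90 without in CECT10094 and at -0.77 against 0.34 in Temohaya-MI26. Its common change of -1.21 ± 0.42 did not pass (SE, limma adjusted p = 0.0688). In a limma fit of the 4 columns at 1 h alone, *SSS1* was called lower. *SEC61* (YLR378C), the pore itself, took opposite signs: 0.86 with ethanol against 0.07 without in CECT10094, and -0.50 against 0.73 in Temohaya-MI26. The spread between the strains for *SEC61* exceeded the common change of -0.22 ± 0.44 (SE).

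The Sec62/Sec63 complex, which serves the post-translational route, showed little at 1 h. *SEC62* (YPL094C), *SEC63* (YOR254C) and *SEC72* (YLR292C) differed by between -0.25 and 0.23. *SEC66* (YBR171W) lay at 0.30 in both media in CECT10094, and at 0.42 with ethanol against -0.27 without in Temohaya-MI26. None of the 4 passed the test. The median of the 8 translocation genes was -0.07 in CECT10094 (0.30 on the deposited scale) and -0.19 in Temohaya-MI26.

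The signal peptidase was on the low side of 0 at 1 h, without a call. *SPC2* (YML055W), a noncatalytic subunit, lay at -0.79 with ethanol against 0.09 without in CECT10094 and at -0.27 against 0.02 in Temohaya-MI26 (common change -0.58 ± 0.32, SE, limma adjusted p = 0.242). *SPC1* (YJR010C-A), another noncatalytic subunit, lay at -0.01 against 0.40 and at -0.02 against 0.56 in the same order. *SPC3* (YLR066W), which is essential for activity, lay at -0.02 against -0.22 and at -0.26 against -0.02, and *SEC11* (YIR022W), the catalytic subunit, differed by -0.09 and -0.47. Above 0 were 1 of 4 differences in CECT10094 and 0 of 4 in Temohaya-MI26, against 52.8% and 50.6% of all ORFs. The median was -0.25 for CECT10094 (0.13 on the deposited scale, where 2 of 4 were below 0) and -0.38 for Temohaya-MI26.

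**Figure D3:**
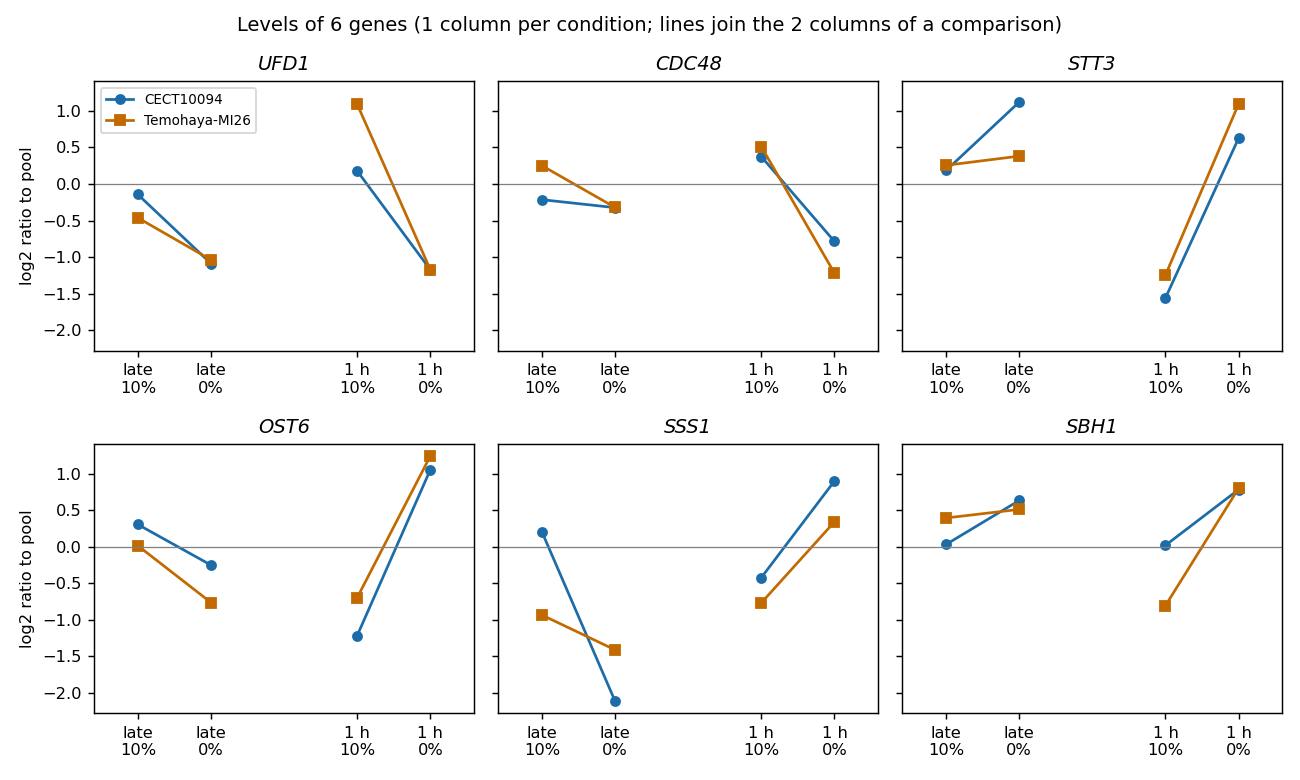
Levels (log2 ratio to the pool, each condition's median at 0) of *UFD1*, *CDC48*, *STT3*, *OST6*, *SSS1* and *SBH1* in the 8 conditions, with 1 value per point and no error bars since each condition had 1 deposited value. *UFD1* was low without ethanol at both stages, between -1.17 and -1.04, whereas *SSS1* was high without ethanol at 1 h and low without ethanol late.

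In late samples no gene of the set passed the test common to both strains. By limma, 0 of 32 genes rose and 0 fell, against 2.14% and 4.24% of all 5893 ORFs tested. At an unadjusted p under 0.05 there were 6 (*SSS1*, *SEC62*, *SEC66*, *UFD1*, *WBP1* and *OST6*), all with a positive change, against 25.3% of all ORFs. Translocation genes held the highest changes.

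*SSS1* was the only gene past a single-strain limit late. It lay at 0.20 with ethanol against -2.11 without in CECT10094, a difference of 2.31 that ranked 37 from the top of 6008 ORFs and exceeded the upper limit of 1.70, as did 2.76% of ORFs. In Temohaya-MI26 it lay at -0.93 against -1.41, a difference of 0.48 inside the limit of 1.43. No gene of the set was below the late lower limit of CECT10094 or outside either late limit of Temohaya-MI26, where 2.85%, 2.51% (below) and 3.04% (above) of ORFs lay. Both strains were low without ethanol, and they differed in how high *SSS1* was with it. The common change was 1.40 ± 0.42 (SE, limma adjusted p = 0.0784), and it became a call when the late pair of Temohaya-MI26 was left out.

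*SEC62*, a subunit of the complex that delivers post-translational substrates, lay at 0.36 with ethanol against -0.86 without in CECT10094 and at -0.24 against -1.002 in Temohaya-MI26 (common change 0.99 ± 0.30, SE, limma adjusted p = 0.0827). *SEC66*, another subunit of the complex, lay at 0.47 against -0.49 and at 0.46 against -0.58 (common change 1.01 ± 0.31, SE, limma adjusted p = 0.085). The 2 strains were nearly the same for *SEC66*. It lies on the raised chromosome arm, and with those chromosomes centred on their own median the common change was 1.42 ± 0.32 and passed the test (SE, limma adjusted p = 0.0374), while *NPL4*, on the same arm, did not (0.93 ± 0.30, SE, limma adjusted p = 0.0984).

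The other translocation genes had smaller late differences. *SEC72* differed by 0.62 in CECT10094 and 0.13 in Temohaya-MI26, and *SEC63*, the J-domain partner of the Hsp70 Kar2, by 0.52 and -0.32. The channel genes lay below 0: *SEC61* differed by -0.46 and -0.32, *SBH1* was at 0.03 with ethanol against 0.63 without in CECT10094 and at 0.39 against 0.51 in Temohaya-MI26, and *SBH2* was at 0.20 against 0.41 and at -0.06 against 0.39. All of these were inside the limits. The median over the 8 genes was 0.57 in CECT10094 and 0.01 in Temohaya-MI26, and on the deposited scale 0.095 and -0.18.

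In the late oligosaccharyltransferase, *STT3* lay at 0.19 with ethanol against 1.12 without in CECT10094 and at 0.26 against 0.38 in Temohaya-MI26, and *OST6* at 0.30 against -0.25 and at 0.01 against -0.76. The differences of *OST6*, 0.55 and 0.78, were thus positive in both strains, the opposite sign to those at 1 h. *OST2* lay at 0.49 against -0.58 in CECT10094, the highest difference of the complex there (1.06), and at -0.02 against -0.15 in Temohaya-MI26. *OST3*, with 0.82 against 0.47 and 0.20 against 0.87, had opposite signs in the strains. *WBP1* differed by 0.85 and 0.53, *SWP1* by 0.38 and -0.18, and *OST4* by -0.50 in CECT10094.

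The late ERAD genes spread around 0. *UFD1* lay at -0.14 with ethanol against -1.09 without in CECT10094, the highest difference of these genes there (0.94), and at -0.46 against -1.04 in Temohaya-MI26 (common change 0.76 ± 0.33, SE, limma adjusted p = 0.19). *CDC48* lay at -0.21 against -0.32 and at 0.25 against -0.32, *CUE1* at 0.18 against -0.58 and at 0.18 against -0.28, and *YOS9* at -0.23 against -0.27 and at -0.01 against 0.23. Of the 5 genes that rose at 1 h, *UFD1*, *CDC48* and *CUE1* had a positive late difference in both strains without passing the test, although that of *CDC48* in CECT10094, 0.11, is negative on the deposited scale.

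*HRD1* had the lowest late ERAD difference, at 0.03 with ethanol against 0.96 without in CECT10094. In Temohaya-MI26 it was 1.08 without ethanol and had no value with it. *DFM1* lay at 0.13 against 0.17 and at -0.09 against 0.31, and *MNL1* at 0.34 against 0.50 and at 0.58 against 0.93. *UBC7* differed by 0.75 and 0.39 and *NPL4* by 0.50 and 0.54. *DER1* (YBR201W), *USA1*, *SSM4*, *HRD3* (YLR207W) and *UBX2* (YML013W) differed by between -0.76 and 0.53, with *DER1* and *SSM4* measured in CECT10094 only. The ERAD median was 0.10 over 14 genes in CECT10094 (-0.38 on the deposited scale) and 0.39 over 11 in Temohaya-MI26, against -0.04 and -0.07 for all ORFs.

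Of the late signal peptidase genes, *SPC2* and *SPC3* had positive differences in CECT10094 and differences of 0.02 and -0.18 in Temohaya-MI26. *SPC3* lay at 0.52 with ethanol against -0.27 without in CECT10094 and at 0.01 against 0.19 in Temohaya-MI26. *SPC2* lay at 0.26 against -0.41 and at -0.44 against -0.47, and *SPC1* at -0.12 against 0.46 in CECT10094, with 0.57 with ethanol and no value without in Temohaya-MI26. *SEC11* differed by -0.09 and -0.16. None of the 4 lay past a limit.

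**Figure D4:**
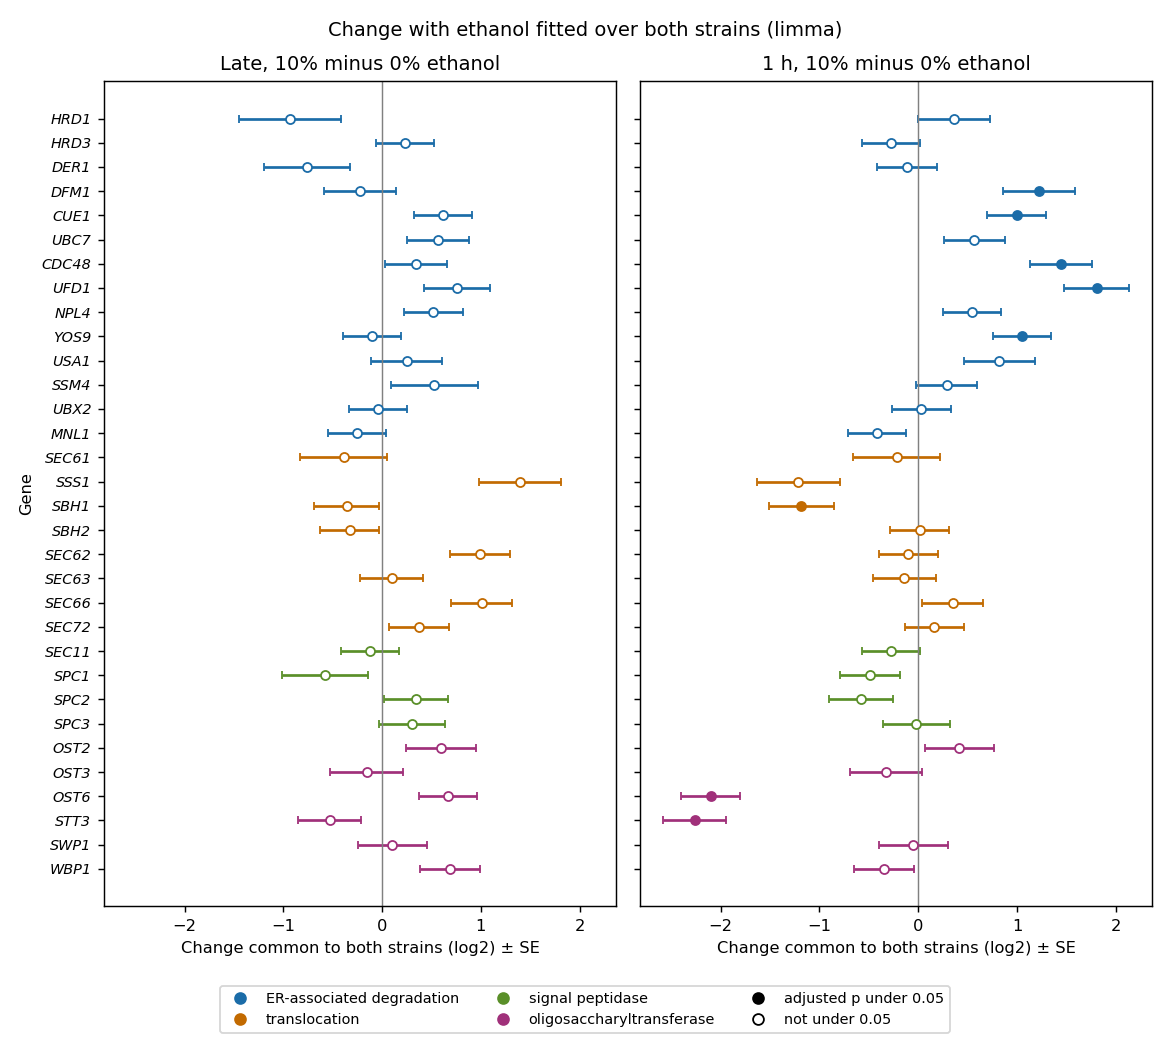
Change with ethanol fitted by limma over both strains (log2, 10% minus 0%, ± SE) in late and in 1 h samples, for the 32 genes tested. *OST1* and *OST4* could not be fitted. Filled circles mark an adjusted p under 0.05: 8 genes at 1 h and none late. The late values of *HRD1*, *DER1*, *SSM4* and *SPC1* rest on CECT10094 alone.

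The late ethanol change was then set against the 1 h change in 1 model, late minus early. By limma, 3 of 32 genes were higher late (*OST6*, *SSS1* and *STT3*) and 0 lower, against 8.77% and 8.98% of all 5869 ORFs tested. *OST6* changed by 0.67 ± 0.30 late against -2.10 ± 0.30 early, a difference of 2.77 ± 0.42 (SE, limma adjusted p = 0.0037). *SSS1* changed by 1.40 ± 0.42 late against -1.21 ± 0.42 early, a difference of 2.61 ± 0.59 (SE, limma adjusted p = 0.0169). For these 2 genes the sign turned between the stages in both strains.

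*STT3* changed by -0.53 ± 0.32 late against -2.26 ± 0.32 early, a difference of 1.73 ± 0.45 (SE, limma adjusted p = 0.029), with both changes below 0. Without the 1 h pair of either strain *OST6* alone stayed past the threshold, and without the late pair of Temohaya-MI26 *STT3* was lost (1.33, limma, adjusted p = 0.0764). The lowest values, for *DFM1* (-1.45 ± 0.51, SE, limma adjusted p = 0.0801), *HRD1* (-1.29 ± 0.63, SE, limma adjusted p = 0.191) and *YOS9* (-1.16 ± 0.41, SE, limma adjusted p = 0.0817), did not pass, nor did those of *CDC48* (adjusted p = 0.116, limma) and *UFD1* (adjusted p = 0.151, limma). For the ERAD genes that rose at 1 h, a smaller late change was therefore not established.

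No gene of the set differed between the strains by the tests the design allows. The ethanol change of CECT10094 minus that of Temohaya-MI26 passed in 0 of 28 genes, with 0 at an unadjusted p under 0.05, and in 0.0% of the 5359 ORFs tested in either direction, of which 4.4% had an unadjusted p under 0.05. The highest values were those of *OST3* (0.98 ± 0.46) and *SEC61* (0.94 ± 0.56). This fit had 1 residual degree of freedom, and a missing call does not show that the strains were alike. In level, CECT10094 minus Temohaya-MI26 ranged from -0.52 (*DER1*) to 0.53 (*SEC72*) over 33 genes, again with 0 calls, against 0.0166% and 0.0665% of ORFs. *SEC72* was the only gene at an unadjusted p under 0.05 (0.53 ± 0.21, SE, limma adjusted p = 0.611), as were 7.38% of ORFs.

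Nor did any gene pass the test of level between stages. Late minus early ran from -1.08 ± 0.60 for *SSS1* to 1.04 ± 0.44 for *HRD1*, with 0 calls among the genes and 0.0% of all ORFs in either direction, and 2 genes at an unadjusted p under 0.05 against 8.16% of ORFs. These were *SEC11* (0.72 ± 0.23) and *OST3* (0.70 ± 0.23, SE, limma adjusted p = 0.579 for each).

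Other genes of the same pathways, from 6 lists, were counted in the same fits. The list nearest to the ERAD genes, 15 further degradation and Cdc48 factors, had 5 genes higher and 0 lower at 1 h and a median change of 0.65, against 10.1% and 10.7% of all ORFs. They included *RPN4*, the transcription factor of the proteasome genes (1.958 ± 0.30, SE, limma adjusted p = 0.00236), and the Cdc48 partners *OTU1*, a deubiquitinase (1.57 ± 0.31, SE, limma adjusted p = 0.00775), and *SHP1* (1.5 ± 0.38, SE, limma adjusted p = 0.0217). Without the 1 h pair of either strain *OTU1* and *SHP1* did not pass, and without that of Temohaya-MI26 *RPN4* did not (1.76, limma adjusted p = 0.0926). Late, *RPN4* was the 1 gene called (1.18 ± 0.30, SE, limma adjusted p = 0.0489), against 2.14% of all ORFs higher late. That call was lost with quantile normalisation (limma adjusted p = 0.18), on the deposited scale (0.142), with the raised chromosomes centred (0.0529) and in a fit of the 4 late columns (0.1). Over alternatives that kept both strains, the limma adjusted p ranged from 0.0414 to 0.18. It was also lost without the late pair of CECT10094 (change 1.06) or of Temohaya-MI26 (1.31).

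Of 17 genes that build the lipid-linked glycan for the oligosaccharyltransferase, 0 were higher and 2 lower at 1 h, a share close to the 10.7% of all ORFs called lower. These were *ALG6*, which adds the innermost glucose (-1.82 ± 0.30, SE, limma adjusted p = 0.00347), and *SEC59*, the dolichol kinase (-1.24 ± 0.30, SE, limma adjusted p = 0.0186). Neither passed without the 1 h pair of either strain, nor did *SEC59* on the deposited scale (limma adjusted p = 0.0502). Late, 1 was lower, *DIE2*, which adds the last glucose (-1.27 ± 0.32, SE, limma adjusted p = 0.0489), against 4.24% of all ORFs. That call was lost with quantile normalisation (limma adjusted p = 0.155), with the raised chromosomes centred (0.0529), in a fit of the 4 late columns (0.0981) and without the late pair of CECT10094 (-0.94, 0.258), with a range of 0.0249 to 0.258 over all alternatives. The list median at 1 h was -0.06.

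Among 6 genes for insertion of tail-anchored proteins, 0 were called at 1 h and 2 rose late, against 2.14% of all ORFs higher late. *SGT2*, which hands these proteins on from chaperones, changed by 2.13 ± 0.36 (SE, limma adjusted p = 0.0206), and *GET3*, the targeting ATPase, by 1.33 ± 0.33 (SE, limma adjusted p = 0.0478). The call of *GET3* was lost with quantile normalisation (limma adjusted p = 0.115), on the deposited scale (0.101), with the raised chromosomes centred (0.0514), in a fit of the 4 late columns (0.092) and without the late pair of CECT10094 (0.96, 0.251), with a range of 0.0184 to 0.251 over all alternatives. Of the 8 genes of the signal recognition particle and its receptor, the 5 of glycan trimming and the 5 of the lumenal Hsp70 machinery, none was called at either stage. *KAR2*, the Hsp70 of the ER lumen, changed by 1.21 late (limma, adjusted p = 0.0679) and by 1.53 at 1 h (limma, adjusted p = 0.0511), the second value resting on Temohaya-MI26 alone.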

How the data were processed

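Per the labels and the study's methods, the authors co-hybridised Cy5 sample and Cy3 pool cDNA, without dye swap, on 24 Yeast slides. They subtracted a global background in GenePix Pro 6.0, normalised ratios in Acuity 4.0 and took the median of 3 slides, requiring at least 2. The deposited values are log2 ratios, 5612 to 6115 per condition. Slides are not separate in them, so precision is limited by the 8 columns.

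As deposited, the column medians (10% first) were -0.16 and 0.32 in late CECT10094, 0.04 and 0.22 in late Temohaya-MI26, 0.16 and -0.22 in early CECT10094, and -0.20 and -0.11 in early Temohaya-MI26. The lowest correlation between columns was -0.356. Each column was centred on its median, leaving out 2 controls. Differences were called outside the central 95% limits. limma 3.58.1 (R 4.3.3) was fitted to all ORFs, with Benjamini-Hochberg adjusted p-values called under 0.05, and was tested on simulated data. The strain-common fits had 2 residual degrees of freedom. No gene of the set overlapped another in the reference annotation, which matched 5653 of 6152 ORFs by locus tag.

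The genes and lists were chosen with earlier results of these data known. Genes named in full were those called, and the highest and lowest of each sub-group and comparison. From the lists, up to 3 called genes each were named, and *KAR2* was added after its value was seen. A deposited table of the authors' own log2 differences was not used. Alternatives covered normalisation, centring, thresholds, the limma prior, complete ORFs, raised chromosomes and omission of strain pairs. The last was added after seeing the data, as was the deposited scale for single-strain differences.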

Additional observations from a re-analysis of the deposited data

Results flagged for a closer look

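A limma test of the difference between stages (late minus early ethanol change) called 3 of 32 genes of the set and 3 of the pathway lists. Of all 5869 ORFs tested, 8.77% were higher and 8.98% lower, and the share higher in the set was close to the first. The difference was 2.77 for *OST6*, 2.61 for *SSS1* and 1.73 for *STT3*. Among the lists it was 1.88 ± 0.43 for *ALG6* (SE, limma adjusted p = 0.0166), 1.64 ± 0.43 for *SEC59* (SE, limma adjusted p = 0.028) and -1.75 ± 0.44 for *OTU1* (SE, limma adjusted p = 0.0245). Without the 1 h pair of either strain *ALG6*, *SEC59* and *OTU1* did not pass, nor did *ALG6* and *SEC59* on the deposited scale (1.41 and 1.17, limma adjusted p = 0.0839 and 0.114) or *SEC59* without the late pair of CECT10094 (1.39, limma adjusted p = 0.0669). The hours of the late cultures with ethanol, 28 h and 40 h against 10 h without, move with this difference and their part in it was not tested.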

How the results depend on the processing

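No called value turned its direction under any alternative. With single-strain limits that hold 99% in place of 95%, 0 genes were lower in CECT10094 at 1 h and 0 were higher or lower in Temohaya-MI26 at 1 h. With a fixed limit of 1, 6 were higher and 3 lower in CECT10094 at 1 h, and 3 higher and 5 lower in Temohaya-MI26 at 1 h. Late, 3 were higher in CECT10094 and 1 in Temohaya-MI26 (*SEC66*). The shares of all ORFs past the alternative limits were not counted, so these counts do not show an excess. Shares of all ORFs are also not given for the alternative limma settings below, so the counts under those do not show an excess either. With limits from the median absolute deviation, 1 was higher in CECT10094 at 1 h (*DFM1*), and 2 were higher and 2 lower in Temohaya-MI26. Quantile normalisation gave 1 higher in CECT10094 at 1 h (*DFM1*), sub-group medians of 0.66 for the signal peptidase and 0.71 for the oligosaccharyltransferase in late CECT10094, and 2 genes higher at 1 h by limma (*CDC48* and *UFD1*). The mean of the oligosaccharyltransferase in CECT10094 at 1 h was -0.67, against a median of -0.09. At an adjusted p under 0.10 in limma, 3 genes rose late (*SEC62*, *SEC66* and *SSS1*), and 2 were lower late than early (*DFM1* and *YOS9*), which also were the 2 on the deposited scale. That scale moves every ethanol difference by -0.48 in late CECT10094, -0.18 in late Temohaya-MI26, 0.37 in early CECT10094 and -0.09 in early Temohaya-MI26, which turns the sign of 18 of the 126 differences of the genes, so signs here are relative to the array median. On it *STT3* was no longer called late minus early (1.26, limma, adjusted p = 0.129). With the raised chromosomes centred on their own median, *SEC66* was the 1 gene above the limit in late Temohaya-MI26 and the 1 that rose late by limma. Leaving out a strain's pair gave 0 to 1 genes higher and 1 lower at 1 h, 0 to 1 higher late, and 1 to 3 higher late minus early. For a single stage, such a fit equals the other strain's own difference and assumes that it varies like the rest. For late minus early, it sets that strain's own difference at 1 stage against the change common to both strains at the other. No paired analysis was possible because each condition had 1 column and the labels give no replicate numbers. The comparison with the authors' own differences was not run. All other counts and medians (168 values) stayed within 1.5 times the main count or, for medians, within 0.326, the SD of the limma prior. A count within that range can still gain or lose a gene, as with *SSS1* at 1 h in the fit of that stage alone. Of the single-gene values 222 kept and 72 lost their call.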

Other observations

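Levels of the genes were also set against each other over the 8 conditions, as a description: all ratios share the pool, and conditions are not replicates. The mean pairwise correlation was 0.196 over 11 ERAD genes, 0.254 over 3 signal peptidase genes, 0.117 over 6 oligosaccharyltransferase genes and 0.087 over 8 translocation genes, against 0.003 over all 5359 complete ORFs. *UFD1* ran with *CUE1* (r = 0.912), *NPL4* (0.865) and *CDC48* (0.815), and against *SBH1* (-0.982) and *STT3* (-0.878). This did not follow the sub-groups throughout. *UFD1* also ran against the ERAD genes *MNL1* (-0.807), *HRD3* (-0.483) and *UBX2* (-0.202), and with *OST2* (0.651). The share of all ORF pairs with such values was not counted. The related pairs *OST3* and *OST6* (0.039) and *SBH1* and *SBH2* (0.238) did not run together closely. *NPL4* and *SEC66* (0.801) are neighbours on the right arm of chromosome II.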
